A study of Mus musculus with 6 samples.

Results

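Interferon-induced genes were followed across 6 arrays of whole mouse sciatic nerve, the large nerve of the leg. The members were a list of 43 genes named for their induction by interferon, and 39 of them could be measured, of 22180 genes tested in all. A member was measured where a probe set carried its symbol and no other, and the brightest such probe set over the 6 arrays stood for the gene. Dtx3l, Oas1a and Gbp2 share their probe sets with another gene, and Ifi44 had no annotated probe set here, so these 4 carry no values. No filter on low values was applied.

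The tested arrays were 3 from Srebf-1c KO mice, aged 10 months, and they were set against 3 from wild-type littermates of the same age. Srebf-1c is a product of Srebf1 and a transcription factor known for driving fatty acid synthesis genes. The labels give no strain, sex, treatment or form of the deleted allele, and nothing in them ties each sample to a mouse of its own. The p-values therefore rest on sample-to-sample spread alone, some of which may be technical. One label disagrees: for the KO samples the source entry names wild type, while titles and the genotype entry give Srebf-1c KO. Srebf1 had log2 intensities of 8.11, 8.06 and 8.04 on the KO arrays, against 9.53, 9.55 and 9.70 on the wild-type arrays, so the titles were followed.

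Interferons are secreted proteins that put cells into an antiviral state. Type I interferons, the alpha and beta forms, signal through the receptor of Ifnar1 and Ifnar2 and a complex that includes STAT2 and IRF9, which binds DNA elements called ISRE. Interferon gamma, made mainly by T and NK cells, signals through Ifngr1 and Ifngr2 to DNA elements called GAS, and raises GTPases that act against microbes inside cells together with the machinery of antigen presentation. The 2 programmes overlap, and the split used here is a working one: 31 members, 28 of them measured, were placed in a type I class, and 12 members, 11 of them measured, in a gamma-type class. The gamma-type class holds Irf1, the guanylate-binding proteins, the immunity-related GTPases, the immunoproteasome subunits Psmb8 and Psmb9 and the peptide transporter Tap1. In peripheral nerve such genes can be expressed by macrophages, Schwann cells, endothelial cells and fibroblasts.

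Most type I members were highest together on 1 array, KO replicate 2, and by their class score the other KO arrays lay with the wild-type arrays. The class score, defined as the mean over a class of each gene's log2 intensity minus that gene's mean over the 6 arrays, shows this array by array. The type I score was -0.29, 1.02 and -0.24 on KO replicates 1, 2 and 3, against -0.31, -0.12 and -0.07 on wild-type replicates 1, 2 and 3. KO replicate 2 stood above every other array, and KO replicates 1 and 3 lay within the wild-type range. The gamma-type score was -0.23, 0.55 and -0.30 on the KO arrays, against -0.11, -0.09 and 0.18 on the wild-type arrays. It was highest on the same array, but KO replicates 1 and 3 lay below every wild-type array, and wild-type replicate 3 came next after KO replicate 2.

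**Figure D1:**
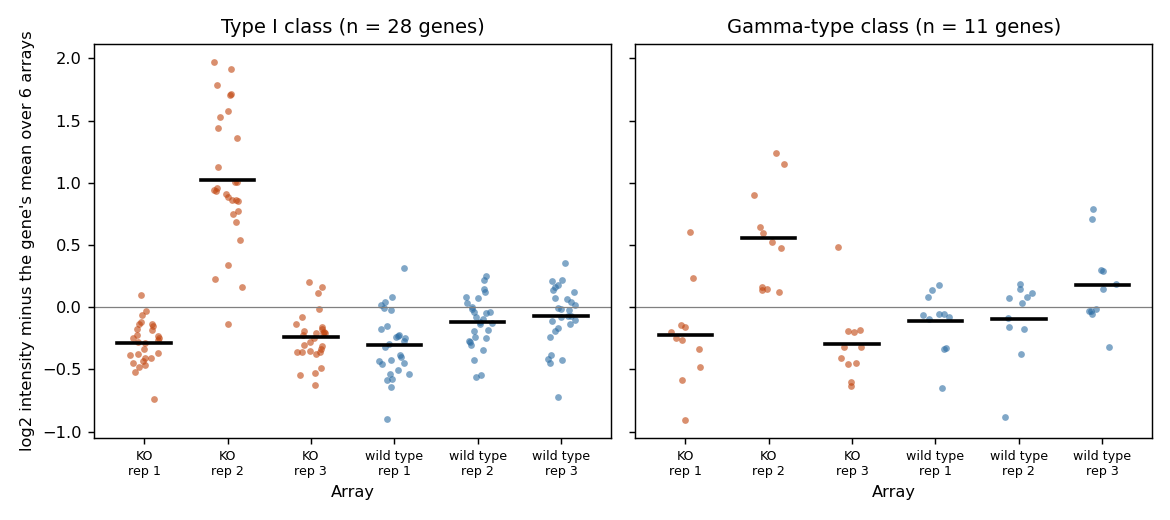
Each point is 1 member gene on 1 array, centred on the mean of its 6 log2 intensities (vertical axis), for the 28 type I genes (left panel) and the 11 gamma-type genes (right panel). KO arrays stand left in red and wild-type arrays right in blue, and black lines are class means. The type I mean of KO replicate 2 is 1.02, and no other array has a type I mean above -0.07.

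Set against each other on each array, the type I score minus the gamma-type score was -0.06, 0.47 and 0.06 on the KO arrays, against -0.19, -0.02 and -0.25 on the wild-type arrays. The type I score was thus the higher on KO replicate 2 and, by a small margin, on KO replicate 3. Because each gene is centred on its own mean, these differences balance out over the 6 arrays. The large value on KO replicate 2 therefore lowers the others, and a sign does not tell which class was brighter on an array. The gamma-type score was the higher on KO replicate 1 and on every wild-type array, by most on wild-type replicate 3 and next on wild-type replicate 1. These differences describe 6 samples and were given no test.

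KO replicate 2 was the highest of the 6 arrays for 26 of 28 type I members and for 5 of 11 gamma-type members, where it was highest for 10.7% of all genes. The 2 type I exceptions were Ifit2 and Ifit3. The gamma-type members were divided: besides the 5 that peaked on KO replicate 2, 2 peaked on KO replicate 1 (12.8% of all genes did) and 4 on wild-type replicate 3 (17.4% of all genes). KO replicate 2 stood at least 2-fold above every other array for 12 of the 39 members, where 0.158% of all genes did so. Of these 12 members, 11 were of the type I class, and the gamma-type one was Gbp3.

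**Figure D2:**
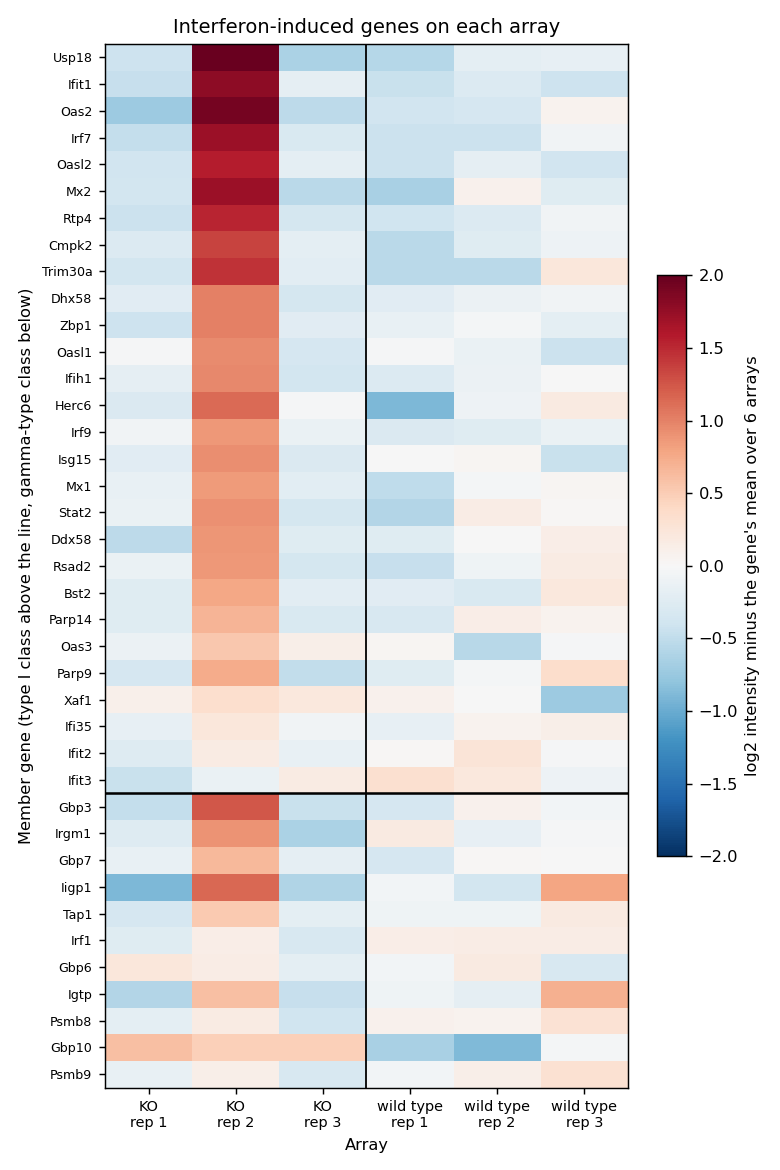
Colours show each member's log2 intensity centred on its mean over all arrays, with KO arrays in the left columns and wild-type arrays in the right columns. Type I genes stand above the black line and gamma-type genes below it, each class ordered by how far KO replicate 2 exceeded the next highest array. Red fills the column of KO replicate 2 from Usp18, at 2.14 above the next array, down to Ifi35, at 0.10.

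Among the regulators, Irf7, the transcription factor that amplifies type I interferon production, had log2 intensities of 7.34, 9.54 and 7.52 on the KO arrays, against 7.40, 7.40 and 7.75 on the wild-type arrays. KO replicate 2 was 3.45-fold above the next highest array, and the other KO arrays lay among the wild-type arrays or just below them. Irf9, the DNA-binding part of the complex that binds ISRE elements, had 8.76, 9.68 and 8.69 on the KO arrays, against 8.52, 8.58 and 8.68 on the wild-type arrays. Its groups did not overlap, but KO replicate 3 and wild-type replicate 3 were nearly level. Stat2 had 8.87, 9.91 and 8.64 on the KO arrays, against 8.41, 9.14 and 9.01 on the wild-type arrays, and again only KO replicate 2 stood out. Irf1, a transcription factor strongly induced by interferon gamma, behaved differently, with 7.50, 7.88 and 7.42 on the KO arrays, against 7.88, 7.89 and 7.89 on the wild-type arrays. All KO arrays lay below the wild-type arrays, which differed among themselves by very little (SD 0.0036, n = 3), and KO replicate 2 lay level with them.

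The sensors of viral RNA and DNA followed the type I pattern. Ddx58, which encodes RIG-I, had 8.86, 10.26 and 9.13 on the KO arrays, against 9.13, 9.36 and 9.52 on the wild-type arrays. Ifih1, which encodes the related sensor MDA5, had 8.81, 9.95 and 8.62 on the KO arrays, against 8.73, 8.87 and 8.99 on the wild-type arrays. For both, KO replicate 2 was the highest array, and the other KO arrays did not exceed the wild-type range. Dhx58, a regulator of these sensors, and Zbp1, a sensor of Z-form nucleic acids that can start cell death, were 2.10-fold and 2.06-fold above the next highest array on KO replicate 2.

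The antiviral effectors held several of the larger excesses on KO replicate 2 and also the type I exceptions. Ifit1, whose protein binds viral RNA caps, had 8.06, 10.31 and 8.35 on the KO arrays, against 8.08, 8.25 and 8.11 on the wild-type arrays. Oas2, which makes the second messenger that activates RNase L, had 7.06, 9.70 and 7.26 on the KO arrays, against 7.41, 7.45 and 7.87 on the wild-type arrays. Both were more than 3-fold higher on KO replicate 2 than on any other array, and for Oas2 the other KO arrays were the lowest of the 6.

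Oasl2 was 3.39-fold, the dynamin-like GTPase gene Mx2 3.08-fold and Cmpk2, a nucleotide kinase gene beside Rsad2, 2.76-fold above the next highest array. The remaining effectors that peaked there were Oasl1, Mx1, Rsad2, which encodes viperin, Bst2, which tethers budding virus, and Oas3, between 1.34-fold and 1.96-fold. Ifit2 and Ifit3, neighbours of Ifit1 in family and function, did not peak on KO replicate 2. Ifit3 had 7.53, 7.84 and 8.14 on the KO arrays, against 8.30, 8.20 and 7.87 on the wild-type arrays, and Ifit2 had 8.21, 8.64 and 8.32 on the KO arrays, against 8.49, 8.73 and 8.46 on the wild-type arrays. For both genes the groups overlapped and KO replicate 2 lay inside the range of the other arrays.

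The ISG15 system, in which the small protein ISG15 is attached to other proteins and removed again, was represented by Isg15 itself, the removing enzyme Usp18 and the attaching ligase Herc6. Usp18, which also blocks the type I receptor, had 7.98, 10.36 and 7.76 on the KO arrays, against 7.81, 8.19 and 8.22 on the wild-type arrays. At 4.39-fold over the next array it was the member with the largest excess on KO replicate 2. Isg15 had 5.70, 6.86 and 5.65 on the KO arrays, against 5.92, 5.96 and 5.49 on the wild-type arrays, and Herc6 had 8.65, 10.06 and 8.92 on the KO arrays, against 8.04, 8.84 and 9.11 on the wild-type arrays. All 3 genes peaked on KO replicate 2, and the other KO arrays overlapped the wild-type arrays.

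Of the other type I members, the chaperone-like gene Rtp4 was 3.02-fold and the tripartite motif gene Trim30a 2.33-fold above the next highest array on KO replicate 2. Parp9 and Parp14, which encode ADP-ribosyltransferase family proteins, were 1.31-fold and 1.48-fold above it. Ifi35 was 1.07-fold above it, and its second, dimmer probe set gave a log2 fold change between KO and wild type of 0.12, against -0.02 for the brighter. Xaf1, a gene tied to cell death, had 11.03, 11.28 and 11.14 on the KO arrays, against 11.02, 10.94 and 10.21 on the wild-type arrays. Its groups did not overlap, with wild-type replicate 3 far below the rest and KO replicate 1 only just above wild-type replicate 1.

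The gamma-type class was less uniform. Gbp3 and Gbp7, guanylate-binding proteins that attack vacuoles holding microbes, followed the type I genes: Gbp3 had 7.31, 9.03 and 7.34 on the KO arrays, against 7.45, 7.88 and 7.74 on the wild-type arrays. The immunity-related GTPases, which act on the same vacuoles, were high on KO replicate 2 and in part on wild-type replicate 3. Iigp1 had 7.79, 9.84 and 8.09 on the KO arrays, against 8.64, 8.32 and 9.48 on the wild-type arrays, and Igtp had 7.24, 8.42 and 7.37 on the KO arrays, against 7.74, 7.65 and 8.54 on the wild-type arrays. KO replicates 1 and 3 were the lowest arrays for both. Irgm1, which guards the cell's own membranes from these GTPases, had 7.03, 8.19 and 6.67 on the KO arrays, against 7.48, 7.14 and 7.26 on the wild-type arrays.

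In antigen processing genes KO replicate 2 stood out least, and the other KO arrays were the lowest or among the lowest. Psmb8 had 7.40, 7.76 and 7.19 on the KO arrays, against 7.67, 7.67 and 7.89 on the wild-type arrays, and Psmb9 had 6.52, 6.79 and 6.35 on the KO arrays, against 6.61, 6.79 and 6.97 on the wild-type arrays. Wild-type replicate 3 was the highest array for both. Tap1, which feeds peptides to class I molecules, had 8.35, 9.22 and 8.49 on the KO arrays, against 8.61, 8.60 and 8.88 on the wild-type arrays. By mean score, the 3 antigen processing genes stood at -0.23, 0.27 and -0.31 on the KO arrays, against -0.02, 0.03 and 0.26 on the wild-type arrays, so KO replicate 2 and wild-type replicate 3 were level, although Tap1 by itself peaked on KO replicate 2. The 3 immunity-related GTPases stood at -0.58, 0.88 and -0.56 on the KO arrays, against 0.01, -0.23 and 0.49 on the wild-type arrays.

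Gbp10 had the smallest p of the members in the comparison of genotypes. It had 8.40, 8.27 and 8.27 on the KO arrays, against 7.15, 6.91 and 7.76 on the wild-type arrays. Every KO array lay above every wild-type array, and KO replicate 2 was not raised over the other KO arrays. The log2 fold change was 1.04 (SE 0.22), a 2.06-fold difference, with means of 8.31 ± 0.07 in KO and 7.27 ± 0.44 in wild type (SD, n = 3 each). In limma over all genes its adjusted p was 0.850, so it did not pass. Gbp10 belongs to a family of close relatives on mouse chromosome 5, among them Gbp6, and its probe set may also measure those. Gbp6 itself was dim, in the 6.96th percentile of mean intensity, and its log2 fold change was 0.13 (SE 0.18).

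To show the DNA elements through which the 2 kinds of interferon are known to act, stretches of promoter are printed for 5 members that behaved differently on KO replicate 2. Ifit1 and Isg15 peaked there, Irf1 and Psmb8 did not peak there, and Igtp was high both there and on wild-type replicate 3. Each stretch is the 150 bases before the annotated start in RefSeq on build GRCm38.p6, read 5′ to 3′ on the strand of the gene. Capitals mark matches to ISRE letters, GAAANNGAAA, or GAS letters, TTCNNNGAA, on either strand.
Ifit1 (chr19:34640739-34640888, plus strand): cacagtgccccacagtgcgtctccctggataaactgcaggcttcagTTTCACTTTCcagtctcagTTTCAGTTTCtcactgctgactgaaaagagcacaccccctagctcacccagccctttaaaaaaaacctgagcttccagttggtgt
Isg15 (chr4:156200819-156200968, minus strand): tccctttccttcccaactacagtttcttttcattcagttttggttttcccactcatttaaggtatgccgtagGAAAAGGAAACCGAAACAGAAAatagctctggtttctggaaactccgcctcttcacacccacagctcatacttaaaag
Irf1 (chr11:53769864-53770013, plus strand): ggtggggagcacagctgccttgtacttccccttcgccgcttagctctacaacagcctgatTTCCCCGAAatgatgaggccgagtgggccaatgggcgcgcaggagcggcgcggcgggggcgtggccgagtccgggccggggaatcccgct
Psmb8 (chr17:34198045-34198194, plus strand): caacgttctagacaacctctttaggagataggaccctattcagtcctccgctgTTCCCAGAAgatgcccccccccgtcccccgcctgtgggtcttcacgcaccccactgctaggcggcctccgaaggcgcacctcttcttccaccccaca
Igtp (chr11:58199406-58199555, plus strand): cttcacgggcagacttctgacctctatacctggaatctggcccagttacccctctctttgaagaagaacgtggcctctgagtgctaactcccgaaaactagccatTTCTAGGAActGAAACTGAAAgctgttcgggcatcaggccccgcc

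The Ifit1 stretch held 2 ISRE matches, which began 104 and 85 bases before the start. The Isg15 stretch held 3, which began 78, 72 and 66 bases before it, and only neighbouring matches overlap. Irf1 and Psmb8 each held a GAS match, beginning 90 and 97 bases before the start, and no ISRE match. Igtp held a GAS match beginning 45 bases before the start and an ISRE match beginning 34 bases before it. Promoter windows running from 250 bases before to 50 bases after a start were at hand for 31 of the 43 members. ISRE letters were found for 11 of 22 type I members and 5 of 9 gamma-type members, against 3.99% of 27025 genes, and GAS letters for 4 of 22 and 4 of 9, against 9.55%.

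A match in this window did not sort the members by their excess on KO replicate 2. Irf7, Oasl2 and Cmpk2 held neither motif, and they exceeded the next array by 1.78, 1.76 and 1.46 on the log2 scale. Ifit3 held 2 ISRE matches and lay 0.45 below the highest array (-0.45). A match is a run of letters and not a measured binding site.

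Between the genotypes, no member passed the test. In limma the adjusted p of the members ran from 0.850 to 0.999, and 1 gene in all, Srebf1, passed 0.05, which is 0.00451% of genes. Of the members, 1 had an unadjusted p under 0.05, Gbp10, which was higher in KO (2.34% of all genes were higher at that p), and 0 were lower (3.49% of all genes). Gbp10 was also the 1 member that met the criterion of the study, a fold change of at least 1.5 with an unadjusted p under 0.05, which 0.64% of all genes met as higher and 0.555% as lower.

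By direction of the mean, 24 of 28 type I members and 5 of 11 gamma-type members stood higher in KO, where 43.1% of all genes did. The median log2 fold change was 0.35 for type I members and -0.01 for gamma-type members, against -0.03 for all genes. The largest type I values were those of Ifit1 at 0.76 (SE 0.54), Oasl2 at 0.67 (SE 0.48), Usp18 at 0.62 (SE 0.64), Irf7 at 0.61 (SE 0.54) and Cmpk2 at 0.59 (SE 0.42). Each is within 2 standard errors of 0. The groups did not overlap, with KO higher, for 3 members (4.08% of all genes), which were Irf9, Xaf1 and Gbp10, and with KO lower for 1, Irf1 (8.21% of all genes).

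With KO replicate 2 included, the members were spread more widely within the KO group than within wild type. The wider spread goes with that 1 array: the type I score was 1.02 there, against -0.29 and -0.24 on KO replicates 1 and 3. The median SD of a type I member was 0.70 over the KO arrays, against 0.23 over the wild-type arrays, where the medians for all genes were 0.15 and 0.20. The SD was larger in KO for 27 of 28 type I members and for 9 of 11 gamma-type members, while it was larger in KO for 36.4% of all genes.

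Without KO replicate 2, 8 of 28 type I members stood higher in KO (44.1% of all genes did), and the type I median was -0.12. For gamma-type members 2 of 11 stood higher and 9 lower (55.9% of all genes were lower), and their median was -0.36, against -0.03 for all genes. In the same fit the median of macrophage markers was -0.21, of endothelial markers -0.36, of neutrophil markers -0.75 and of adipocyte markers -1.19, and their part in the gamma-type values was not tested. In that fit 4 members had an unadjusted p under 0.05 with KO lower (3.84% of all genes), all of them gamma-type: Iigp1 at -0.87, Psmb8 at -0.45, Irgm1 at -0.44 and Irf1 at -0.43. Gbp10, at 1.06, was the 1 member higher (2.94% of all genes). No member passed an adjusted p of 0.05 there, and the smallest was 0.710. In all, 19 members had the opposite sign when KO replicate 2 was left out.

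**Figure D3:**
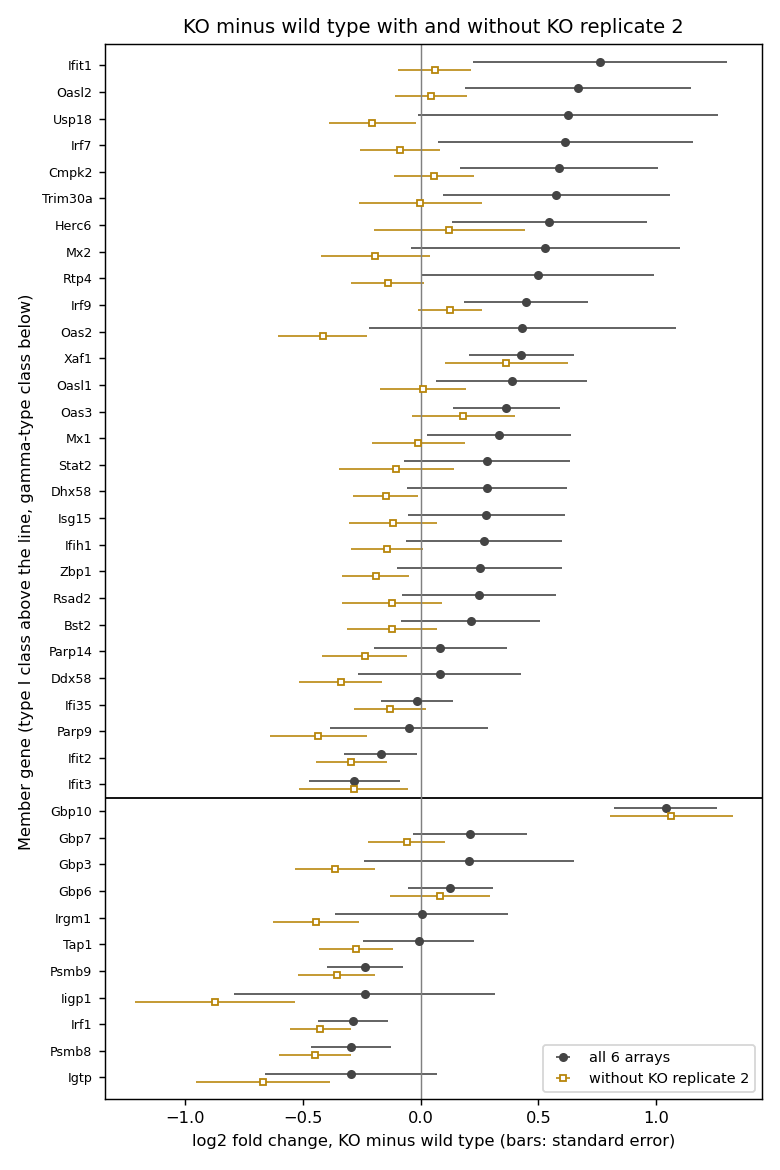
Log2 fold changes of the 39 members, KO minus wild type, from limma with all 6 arrays (filled circles) and without KO replicate 2 (open squares), with bars of 1 standard error. Most type I genes stand right of 0 with all arrays and move to or below 0 without KO replicate 2, while Gbp10 stays at 1.04 and 1.06 and Irf1 and Psmb8 are below 0 in both fits.

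No measured interferon gene peaked on KO replicate 2, and genes upstream of them did so in part. Of 21 interferon genes listed, 19 were measured, and KO replicate 2 was the highest array for 0 of them (10.7% of all genes). With 19 genes measured, 0 is not far from that share. Their mean intensity ran from the 1.24th percentile, for Ifna16, to the 79.8th, for Ifna4. Ifnb1 had 4.08, 3.76 and 4.17 on the KO arrays, against 3.93, 4.02 and 3.87 on the wild-type arrays, and it was dim, in the 4.80th percentile of mean intensity. Ifng had 6.25, 5.98 and 5.93 on the KO arrays, against 6.25, 5.91 and 6.39 on the wild-type arrays. Neither gene was raised on KO replicate 2, and at a level as dim as that of Ifnb1 a little transcript may not be told from background.

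For the receptors and kinases, 10 of 11 listed genes were measured. Ifnar1 had a log2 fold change of 0.07 (SE 0.14), Ifnar2 of -0.16 (SE 0.18), Ifngr1 of 0.27 (SE 0.35) and Ifngr2 of -0.14 (SE 0.15), and KO replicate 2 led for Ifnar1 by 0.0066 and for Ifngr1 by 0.19. Among 13 measured genes upstream of interferon, KO replicate 2 led for 5 (10.7% of all genes), most clearly for Trim25, a ligase that activates RIG-I, by 0.77, and for Tlr7, a sensor of single-stranded RNA, by 0.76. The score of the upstream list was -0.18, 0.28 and -0.08 on the KO arrays, against -0.21, -0.01 and 0.20 on the wild-type arrays, highest on KO replicate 2. Myd88, an adaptor of the Toll-like receptors, had -0.28 (SE 0.19), Irf3 -0.23 (SE 0.17) and the adaptor gene Ticam1 0.14 (SE 0.14). Of the receptor and upstream genes, 0 had an unadjusted limma p under 0.05 in either direction. Of all genes, 2.34% were higher and 3.49% lower at that p.

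Among 8 measured brakes on interferon signalling, Socs3 was the 1 gene with an unadjusted limma p under 0.05 (3.49% of all genes were lower at that p). Its log2 fold change was -0.46 (SE 0.19, limma adjusted p 0.850), and Socs1 stood at -0.19 (SE 0.13). Socs3 had 7.72, 7.27 and 7.47 on the KO arrays, against 7.72, 8.26 and 7.84 on the wild-type arrays. KO replicate 2 was its lowest array, and KO replicate 1 lay only just below wild-type replicate 1.

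A further list of 44 interferon-induced genes, 38 of them measured, also had its highest score on KO replicate 2. This list was chosen with earlier results of these data known, so it is no independent support. KO replicate 2 was the highest array for 21 of the 38 (10.7% of all genes). The list score was -0.29, 0.64 and -0.29 on the KO arrays, against -0.22, -0.03 and 0.20 on the wild-type arrays. As in the gamma-type class, KO replicates 1 and 3 lay below every wild-type array, and wild-type replicate 3 came next after KO replicate 2. Between genotypes the median log2 fold change was -0.01. At an unadjusted limma p under 0.05, 0 genes were higher (2.34% of all genes) and 2 were lower (3.49% of all genes). With 38 genes measured, 2 is close to that share. They were the chemokine gene Cxcl10 at -0.64 (SE 0.22) and the peptide transporter gene Tap2 at -0.47 (SE 0.17), each with a limma adjusted p of 0.850. Ifi204, a DNA sensor family gene, had the largest difference, 1.42 (SE 0.66), with 6.89, 8.93 and 7.14 on the KO arrays, against 5.43, 5.87 and 7.39 on the wild-type arrays, where wild-type replicate 3 overlapped the KO arrays. Gbp4, another guanylate-binding protein gene, stood at -0.49 (SE 0.30).

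Of all 22180 genes, 35 were at least 2-fold higher on KO replicate 2 than on every other array, and 12 of these were members and 7 were on the further interferon list. Ifi44l led them, at 9.08 on KO replicate 2, against at most 6.14 elsewhere, and Oas1g and Oas1b, relatives of Oas1a whose probe sets may share transcripts, exceeded the next array by 2.30 and 1.68. The eukaryotic initiation factor kinase gene Eif2ak2, which encodes the RNA-activated kinase PKR, exceeded it by 1.11. On the other arrays 2 to 28 genes met the same 2-fold rule, and 0 of them were members.

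**Figure D4:**
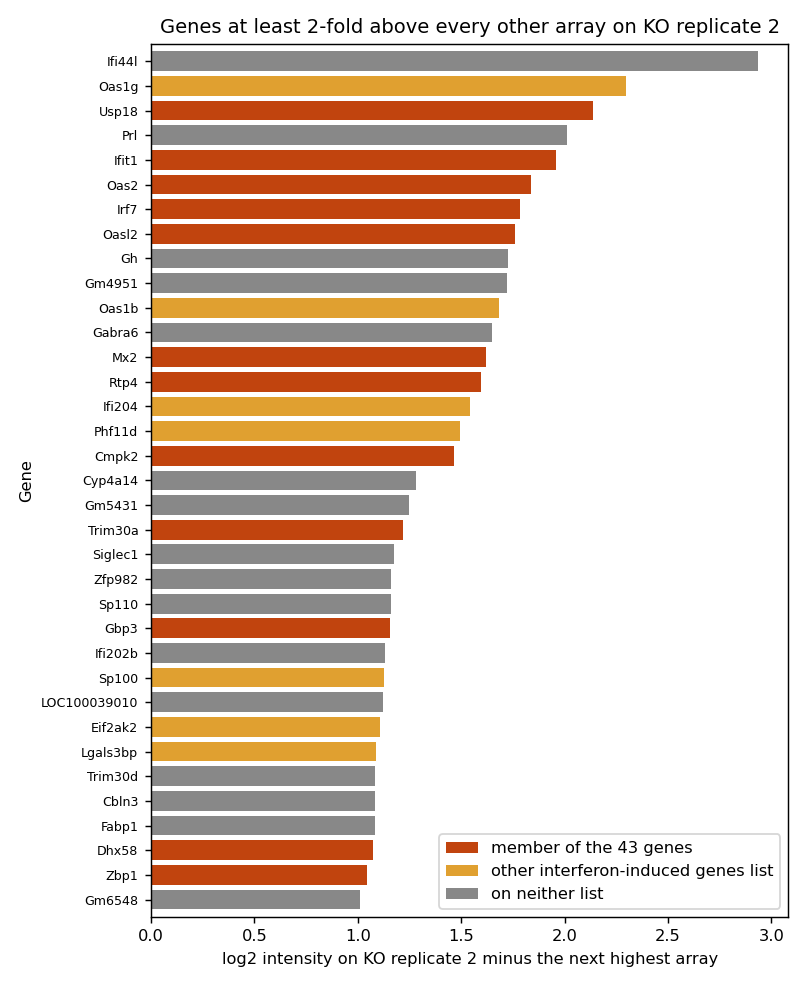
Bars give, for each of the 35 genes at least 2-fold higher on KO replicate 2 than on every other array, the log2 intensity there minus that of the next highest array. Red bars are members, yellow bars are on the further list of interferon-induced genes, and grey bars are on neither list. The top bar is Ifi44l at 2.94, followed by Oas1g at 2.30 and Usp18 at 2.14.

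Cell type markers also differed between arrays. In bulk tissue, more cells of a type and more RNA per cell cannot be told apart. The score over 15 of 15 macrophage markers was -0.45, 0.46 and -0.02 on the KO arrays, against -0.25, -0.20 and 0.45 on the wild-type arrays, so KO replicate 2 and wild-type replicate 3 were level while their type I scores were 1.02 and -0.07. Their gamma-type scores were 0.55 and 0.18, the highest of the 6 arrays, as were their macrophage scores. The summed intensity of these markers ran from 6005 to 10657 on the KO arrays and from 5768 to 10016 on the wild-type arrays. The adipocyte score, over 8 of 10 markers, was 1.65 on KO replicate 2 and 1.82 on wild-type replicate 3, and below 0 on the other 4 arrays. The fibroblast score over 8 markers was 0.61 on KO replicate 2 and 0.52 on wild-type replicate 3, and also below 0 elsewhere. Dpt and Pi16 carried much of it: over the other 6 fibroblast markers the score was -0.28, 0.25 and 0.15 on the KO arrays, against -0.25, 0.06 and 0.08 on the wild-type arrays. The mast cell score over 7 of 7 markers was -0.24, 0.37 and 0.10 on the KO arrays, against -0.19, -0.12 and 0.08 on the wild-type arrays. It was highest on KO replicate 2, which was the highest array for 5 of the 7 (10.7% of all genes). The part of these markers in the pattern of the members was not tested.

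Lymphocyte and neutrophil markers had other patterns. T and NK cell markers, 12 of 15 measured, scored 0.04, -0.04 and 0.01 on the KO arrays, against 0.04, -0.14 and 0.09 on the wild-type arrays, and their summed intensity ran from 795.9 to 857.9 on the KO arrays and from 759.6 to 865.4 on the wild-type arrays. Neutrophil markers scored 1.54 on wild-type replicate 3 and below 0 on all other arrays. Markers of plasmacytoid dendritic cells, a cell type known for making type I interferon, scored -0.09, 0.05 and 0.15 on the KO arrays, against 0.14, -0.20 and -0.05 on the wild-type arrays. Cox6a2, which is also a gene of skeletal muscle, varied most of these 6 markers. It ran from 9.97 on wild-type replicate 2 to 12.30 on wild-type replicate 1. Over the other 5 the score was -0.26, 0.22 and 0.13 on the KO arrays, against -0.05, 0.0045 and -0.03 on the wild-type arrays. That score was highest on KO replicate 2. These 5 were divided. Siglech had 7.22, 7.91 and 7.56 on the KO arrays, against 7.54, 7.53 and 7.65 on the wild-type arrays, so KO replicate 2 led by 0.26. For Tcf4 and Klk1 it led by 0.05 each, and Ccr9 and Ly6d were highest on KO replicate 3. No marker was at 0 on any array.

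**Figure D5:**
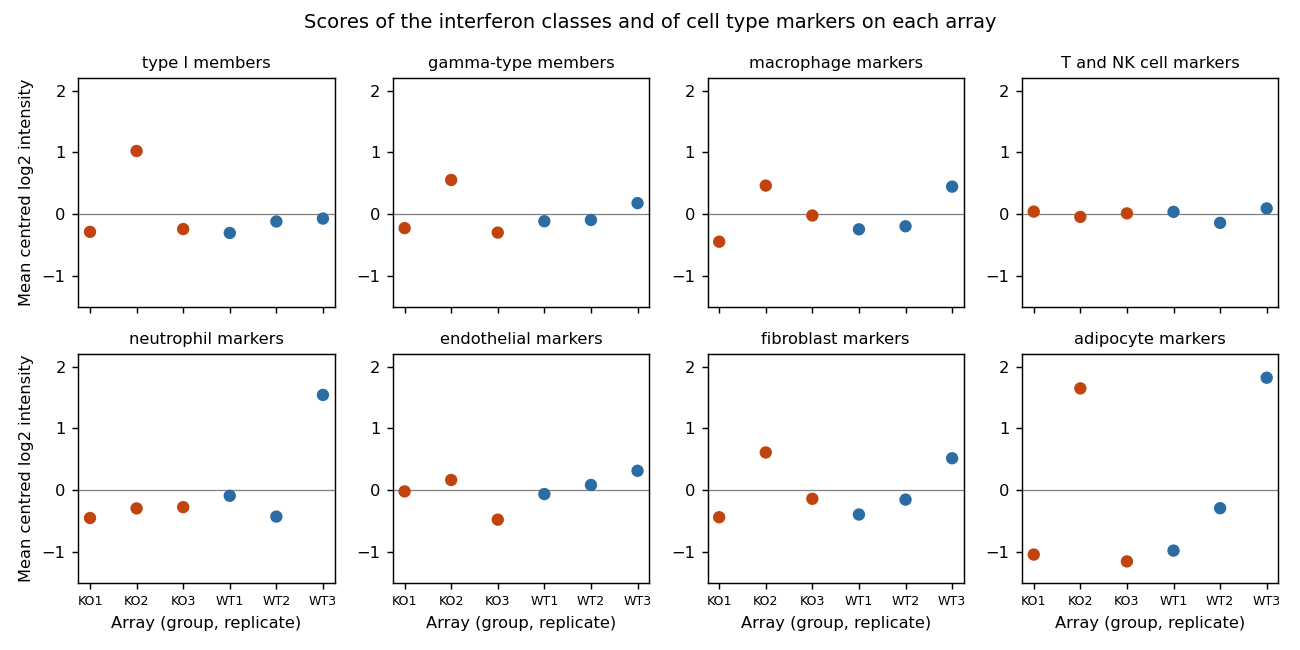
Each panel plots the mean centred log2 intensity of a list on each of the 6 arrays, with KO arrays in red on the left and wild-type arrays in blue on the right. Macrophage and adipocyte scores are high on both KO replicate 2 and wild-type replicate 3, as is the fibroblast score, much of it from Dpt and Pi16, whereas the type I score is high on KO replicate 2 alone.

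Schwann cell genes and skeletal muscle genes were both bright. Pmp22 and Mbp, 2 proteins of myelin, were in the 99.9th and 99.8th percentile of mean intensity, and the Schwann cell score over 7 of 10 markers was 0.09, -0.07 and 0.09 on the KO arrays, against -0.14, 0.21 and -0.18 on the wild-type arrays. The muscle genes Acta1 and Myh4 were both in the 99.9th percentile, and the summed intensity of 10 muscle markers ran from 44615 to 76654 on the KO arrays and from 30483 to 83640 on the wild-type arrays. The part of muscle in these nerve samples was not tested. Median intensity over 41077 probe sets was 115.5 to 122.6 on the 6 arrays and 118.9 on KO replicate 2. The deposited values were already normalized, so these medians cannot show whether an array was brighter as a whole. With 3 arrays a group, precision is limited.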

How the data were processed

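The deposited intensities are linear and come from 1 array per sample. Per the series' design text, the authors background-corrected the perfect-match signals, normalized them and summarized them by RMA in TAC and Partek. A linear scale was read from their range of 3.67 to 23738. Build mm8 stands in the submitters' processing notes. Log2 was taken without a pseudocount. Of 41077 probe sets, 23521 carried a single gene symbol in the platform annotation, 1814 several and 15742 none.

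KO minus wild type was fitted over 22180 genes with limma (version 3.58.1, R 4.3.3), using lmFit and eBayes, two-sided, with Benjamini-Hochberg adjustment. The fit was tested on simulated data. The text names every measured member and, of each pathway list, the receptors, Ifnb1, Ifng and some of those with the smallest p. Members, classes and lists were chosen with earlier results of these data known, and counts for KO replicate 2 and 2 marker scores without their leading genes were added after the values were seen. Markers of B and plasma cells, mast cells, endothelium and skeletal muscle scored -0.03, 0.37, 0.16 and -0.42 on KO replicate 2. The alternatives tried were the methods' ANOVA, a replicate block, another prior, a filter on dim genes, 2 scalings, averaged probe sets and leaving out each array.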

Additional observations from a re-analysis of the deposited data

How the results depend on the processing

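No member passed an adjusted p of 0.05 in limma, or in the methods' ANOVA, under any alternative run, and the lowest adjusted p of a member was 0.668, for Gbp10. Over the alternatives Gbp10 had log2 fold changes of 0.859 to 1.28 and adjusted p-values of 0.668 to 1. Over all genes, 1 passed; 0 passed with the replicate block, with the methods' ANOVA and with arrays at one median, and 0 to 1 with 1 array left out (1 without KO replicate 2, which was not Srebf1). Same-numbered arrays deviated together with correlations of 0.12, 0.01 and -0.23, so the numbers were not taken to pair samples, and the block changed no call of a member. With 1 array left out, 1 to 5 members had an unadjusted p under 0.05 and 1 to 2 met the criterion of the study, with the highest counts without KO replicate 2. The type I median ran from -0.1218 (without KO replicate 2) to 0.5253 (without KO replicate 3), and the gamma-type median from -0.3645 (without KO replicate 2) to 0.1367 (without KO replicate 1). Class scores per array moved by less than the wild-type SD under both scalings and averaged probe sets. KO replicate 2 stayed the highest array for 25 to 26 type I and 5 to 6 gamma-type members, and 12 members stayed at least 2-fold above every other array.

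Of 504 log2 fold changes of members under alternatives, 42 had the opposite sign, and 15 members kept their sign in every alternative. Repeated quantile normalization gave 0.02748 for Ifi35, -0.04598 for Irgm1 and 0.03239 for Tap1. Arrays at one median gave -0.04233 for Irgm1, and averaged probe sets gave 0.05057 for Ifi35. With 1 array left out, the ranges of those that turned were as follows. Log2 fold changes ran, for Bst2 from -0.1223 to 0.3899, Ddx58 from -0.3405 to 0.3589, Dhx58 from -0.1489 to 0.5304, Gbp3 from -0.3645 to 0.4974, Gbp6 from -0.003188 to 0.2544, Gbp7 from -0.05948 to 0.3548. Log2 fold changes ran, for Ifi35 from -0.1319 to 0.06596, Ifih1 from -0.1447 to 0.5203, Iigp1 from -0.873 to 0.1539, Irf7 from -0.08745 to 1.009, Irgm1 from -0.4441 to 0.3198, Isg15 from -0.1172 to 0.4893. Log2 fold changes ran, for Mx1 from -0.0111 to 0.5194, Mx2 from -0.1921 to 0.9324, Oas2 from -0.4168 to 0.9062, Parp14 from -0.2386 to 0.2602, Parp9 from -0.4355 to 0.1814, Rsad2 from -0.1213 to 0.4892. Log2 fold changes ran, for Rtp4 from -0.1406 to 0.8366, Stat2 from -0.103 to 0.5313, Tap1 from -0.2749 to 0.1581, Trim30a from -0.001016 to 0.904, Usp18 from -0.2049 to 1.093, Zbp1 from -0.1912 to 0.5158. The cause was not tested.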

Other observations

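Of the 35 genes at least 2-fold higher on KO replicate 2 than on every other array, 16 were on neither interferon list. They were read after their values were seen. Several carry names of known interferon-induced families: Ifi44l, Ifi202b, a relative of Ifi204, Sp110, a relative of Sp100, and Trim30d, a relative of Trim30a. Siglec1, a sialic acid receptor of macrophages that is known to be induced by type I interferon, had log2 intensities of 6.11, 7.98 and 6.63 on the KO arrays, against 6.33, 6.37 and 6.80 on the wild-type arrays.

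Others belong to tissues far from the nerve. Prl, the pituitary hormone prolactin, had 9.01 on KO replicate 2, 2.01 above the next array, KO replicate 1, against 5.87, 5.39 and 6.51 on the wild-type arrays, and Gh, growth hormone, had 8.53, 10.26 and 7.06 on the KO arrays, against 6.67, 7.02 and 8.12 on the wild-type arrays. KO replicate 2 was highest for both, with KO replicate 1 and wild-type replicate 3 next. Gabra6, a receptor subunit of cerebellar neurons, had 6.15 on KO replicate 2 and at most 4.50 on any other array. The liver and gut fatty acid-binding protein gene Fabp1 had 5.92 there and at most 4.84 elsewhere. Among the leading genes of wild-type replicate 1 was Ttr, the transthyretin gene, at 11.69, which was 2.14 above the next array on the log2 scale. KO replicates 2 and 3 came next for Ttr, at 9.55 and 9.48, against at most 7.95 on the other arrays. The part of stray RNA in the interferon pattern was not tested.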
